A study of Mus musculus with 7 samples.

Results

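Broad Pbx domains are the widest binding regions of the Pbx limb peak list, here the peaks of 2000 bp or more on the main chromosomes of the mouse. There were 1775 of them among 33915 listed Pbx peaks, or 5.24% of the 33845 peaks on main chromosomes. They were chosen by width, so their width is a description of the choice and no finding. Each was compared with the 32070 narrower Pbx peaks of the same list, and both Shox2 lists, which played no part in the choice, were laid over both.

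The study mapped protein binding by chromatin immunoprecipitation and sequencing (ChIP-seq) in freshly dissected tissue of mouse embryos. The group that supplied the domains was limb at E12.5 (embryonic day), precipitated with an antibody against Pbx. The groups laid over it were limb and palate at E12.5, both labelled Shox2-HA and precipitated with an antibody against HA, the epitope tag on Shox2. Each group had 1 library. The labels do not say whether the embryos of the Pbx library carried the tag, how many embryos were pooled, or from which strain they came. The other 4 libraries, which include the input and the anti-HA precipitate of untagged embryos, were not analysed here, so no value below has a background list or a replicate error beside it. The lists hold positions only: 33915 Shox2 limb peaks, 15091 Shox2 palate positions of 1 bp, and the Pbx peaks. Sequencing depth is therefore unknown.

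Pbx proteins are homeodomain transcription factors of the TALE class. They bind DNA alone or in complexes with Meis, Prep and Hox proteins, and in the limb they are needed for the patterning of the proximal skeleton. Shox2 is a homeodomain factor needed for the growth of the humerus and femur and for the formation of the palate. In a peak list of a transcription factor, a peak around a single site can be about as wide as a sequenced DNA fragment. The listed Pbx peaks had a median of 897 bp and the Shox2 limb peaks one of 261 bp. A wider peak can hold several sites or a longer stretch of enriched DNA, and a list of positions does not tell these apart.

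The width of Pbx peaks ran on without a break at 2000 bp. The list held 373 peaks of 1900 to 1999 bp and 281 of 2000 to 2099 bp. The narrowest domains measured 2000 bp, and 4 peaks of 1999 bp lay just outside. Of the 281 just inside the limit 38.1% held a Shox2 limb peak and 16.0% a palate position, and of the 373 just outside 33.8% and 11.8% did. The domains are thus the upper tail of one distribution, not a class set apart by its width.

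Most domains were only a little wider than the limit. Their median was 2427 bp with quartiles of 2167 and 2880 bp, against a median of 876 bp in the narrower peaks. Of the 1775, 988 (55.7%) were under 2500 bp, 123 (6.93%) reached 4000 bp and 39 (2.20%) reached 5000 bp. Together they covered 4.80 Mb, which was 13.7% of the ground covered by Pbx peaks on main chromosomes. A further 10 peaks of that width lay among the 70 peaks on unplaced sequences (14.3%). The rule left these out.

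The domains stood high in the Pbx file, whose order the files do not explain and which is read here as place only. Their median line was 4974, against 17620 for narrower peaks. The first decile of the file, the top 10% of its lines, held 723 domains (40.7% of all), and 21.4% of the Pbx peaks there were domains. The count fell with every decile, to 335 in the second, 120 in decile 5 and 33 in the last, where 0.974% of peaks were domains. Among the first 10 lines 4 were domains, and among the first 100 lines 41 were.

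Width and place went together over the whole list (Spearman's rho -0.51 across the 33845 peaks of 1 library, which are not independent). Within the domains, whose range of width the rule narrows, rho was -0.10 across 1775. The median line was 5342 for domains of 2000 to 2499 bp, 5294 at 2500 to 2999 bp, 3821 at 3000 to 3999 bp and 2434 at 4000 bp or more. The median domain measured 2486 bp in the first decile, 2546.5 bp in decile 8 and 2294 bp in the last, which held 33 domains. Between the ends these medians did not follow the order of the deciles. A domain of 9303 bp, among the 10 widest, stood on line 31071.

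**Figure D1:**
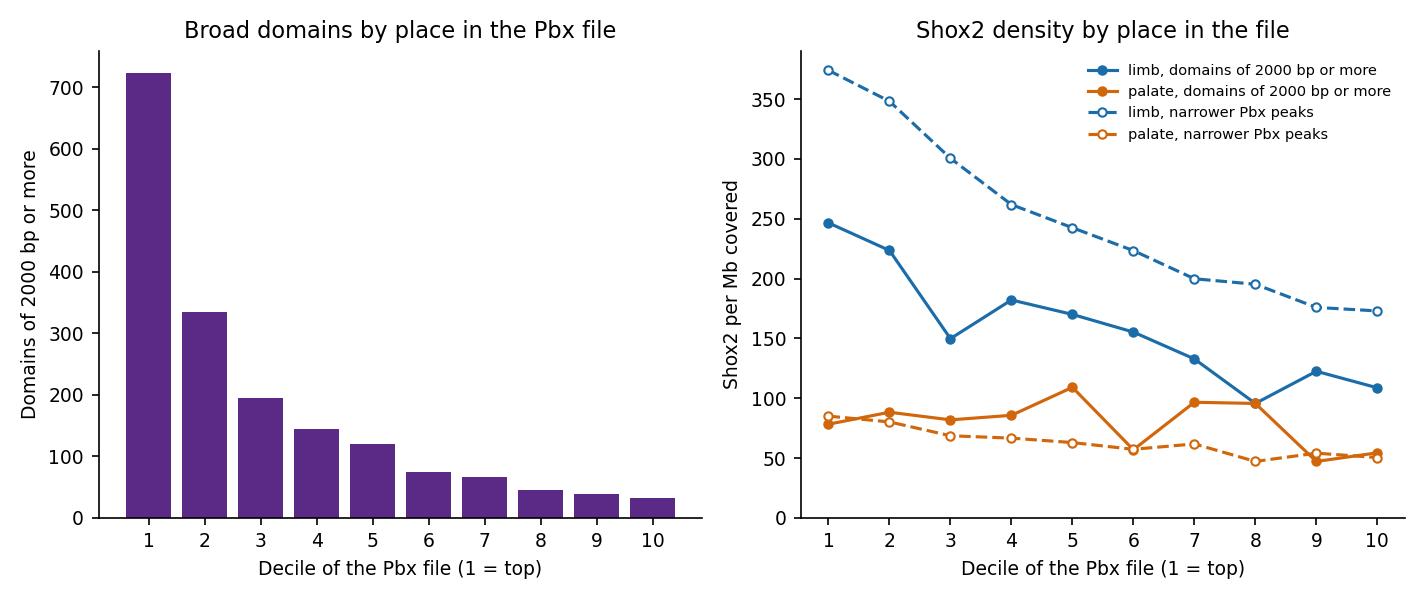
Left, the number of Pbx domains of 2000 bp or more in each decile of the Pbx file, from the top (1) to the bottom (10). Right, Shox2 limb peak centres and palate positions per Mb covered by Pbx peaks in each decile, for domains (filled, solid) and narrower peaks (open, dashed). Domains fell from 723 in the first decile to 33 in the last, and the limb density of domains lay below that of narrower peaks in all 10 deciles.

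Domains occurred on all autosomes and on X. They made up 4.19% (chromosome 5) to 6.12% (chromosome 11) of the Pbx peaks of an autosome. Chromosome 2 held the largest number, 161. The X chromosome held 10 domains among 389 Pbx peaks (2.57%). The share of domains thus varied little between autosomes.

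Domains held Shox2 limb peaks more often than all narrower Pbx peaks pooled did. With 1 bp of overlap counted as holding, 678 of 1775 domains (38.2%, exact binomial 95% interval 35.9 to 40.5%) held at least 1 Shox2 limb peak, where the share over all Pbx peaks was 23.4%. Among narrower peaks 7249 (22.6%, 22.1 to 23.1%) did. The widest of these, at 1500 to 1999 bp, were close to domains, at 36.4% (34.7 to 38.2%). These intervals treat peaks as independent and cover counting error only. The share was higher in domains on 19 of 20 chromosomes, X being the exception with 2 of its 10 domains against 31.1% of its narrower peaks. It was higher in 9 of the 10 deciles of the file. The exception was decile 3, with 28.9% in domains and 29.4% in narrower peaks.

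The gap for palate Shox2 was larger in proportion. At least 1 palate position lay in 348 domains (19.6%, 17.8 to 21.5%), where the share over all Pbx peaks was 6.64%. Narrower peaks held one in 1898 cases (5.92%, 5.66 to 6.18%). The share was higher in domains on 20 of 20 chromosomes and in 10 of 10 deciles of the file. Since each tissue and factor had 1 library and positions are the only measurement, these differences were not tested across samples.

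A wide peak meets more of any list by its extent alone. When only the central 200 bp of each Pbx peak was searched, the shares lay within each other's intervals: 19.2% of domains (17.4 to 21.1%) and 19.0% of narrower peaks (18.5 to 19.4%) met a Shox2 limb peak there, and 19.0% of all Pbx peaks did. Domains were ahead on 10 of 20 chromosomes in this measure. Both groups pool widths that differ in it: the limb share was 6.54% below 500 bp, 26.7% at 1000 to 1249 bp and 25.3% at 1500 to 1999 bp. In the domains it was 21.9% at 2000 to 2499 bp, 19.9% at 2500 to 2999 bp, 13.0% at 3000 to 3999 bp and 8.94% at 4000 bp or more. A palate position lay in the central 200 bp of 2.48% of domains (1.81 to 3.31%) and of 2.49% of narrower peaks (2.32 to 2.66%), with 2.49% over all Pbx peaks. With the central 800 bp, domains were ahead of all narrower peaks pooled, at 30.0% against 22.3% for limb and 9.52% against 5.50% for palate. That window reaches beyond many narrower peaks, whose lower quartile of width was 686 bp. In it the limb share was 30.7% for peaks of 1000 to 1249 bp and 34.2% for those of 1500 to 1999 bp. The palate shares of these 2 width classes were 7.59% and 10.8%, so domains were not ahead of all narrower peaks. The middle of a wide peak is not always its summit, and summits of the Pbx peaks are not in the list.

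Per Mb covered, with all narrower peaks pooled, limb and palate Shox2 went in opposite directions. The centres of 984 Shox2 limb peaks lay in domains, 205 per Mb, and 7791 lay in narrower peaks, 257 per Mb. The ratio of domains to narrower peaks was 0.80 (exact 95% interval 0.75 to 0.85), and domains had the lower rate on 18 of 20 chromosomes and in all 10 deciles of the file. This interval and the one for palate below treat Shox2 sites as independent and cover counting error only. Several sites can lie in the same Pbx peak. Palate positions were denser in domains, with 394 positions or 82.2 per Mb, than in narrower peaks, with 1960 or 64.6 per Mb. That ratio was 1.27 (interval 1.14 to 1.42), and domains had the higher rate on 16 of 20 chromosomes and in 7 of 10 deciles. Both ratios depend on which narrower peaks are taken. Limb density was 152 per Mb below 500 bp and 195 at 500 to 749 bp, under that of domains, but 262 at 1500 to 1999 bp. Palate density was 32.7 and 42.6 per Mb in the first 2 of these width classes and 84.6 in the last, close to that of domains.

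Place in the file bore on both ratios. With the narrower peaks weighted to the same deciles of the file as the domains, the limb ratio was 0.64 and the palate ratio 1.09. At matched place the limb densities were therefore further apart, and the palate densities closer together. In the first decile, which holds 723 domains, palate positions lay at 78.2 per Mb in domains and 85.0 per Mb in narrower peaks, while limb peaks lay at 247 and 374 per Mb.

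The change with width was gradual. The share of Pbx peaks holding a Shox2 limb peak rose from 6.88% below 500 bp to 31.1% at 1000 to 1249 bp and 36.4% at 1500 to 1999 bp. From there it was level, at 38.5%, 39.7%, 34.9% and 38.2% in domains of 2000 to 2499, 2500 to 2999, 3000 to 3999 and 4000 bp or more. Beyond the limit the 4 shares did not follow an order of width.

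Limb Shox2 density first rose with width and then fell. It was 152 per Mb below 500 bp and 195 at 500 to 749 bp, and highest, 299 per Mb, in narrower peaks of 1000 to 1249 bp. It was 240 per Mb in domains of 2000 to 2499 bp, 219 at 2500 to 2999 bp, 171 at 3000 to 3999 bp and 108 per Mb (84.4 to 137) in the 123 domains of 4000 bp or more. Density in the widest domains was thus well under that of the narrowest domains.

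For palate Shox2 the share of holders kept rising with width. It was 13.7% at 1500 to 1999 bp, then 15.7%, 19.6%, 28.4% and 32.5% (24.4 to 41.6%) over the same 4 steps of domain width. Palate density was 73.9 per Mb at 1000 to 1249 bp and 84.6 at 1500 to 1999 bp, and in domains ran from 75.4 to 97.0 per Mb with overlapping intervals. In proportion to the ground covered, palate positions were thus about as dense in domains as in Pbx peaks of 1000 to 1999 bp. Limb centres outnumbered palate positions 3.07 to 1 in domains under 2500 bp and 1.44 to 1 in those of 4000 bp or more. In all narrower peaks pooled the ratio was 3.98 to 1. Peaks just under the limit were close to the narrowest domains. Those of 1500 to 1999 bp held 1315 limb centres and 424 palate positions, and domains under 2500 bp held 525 and 171. The 2 Shox2 lists differ in length, so these ratios compare width classes and not tissues.

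**Figure D2:**
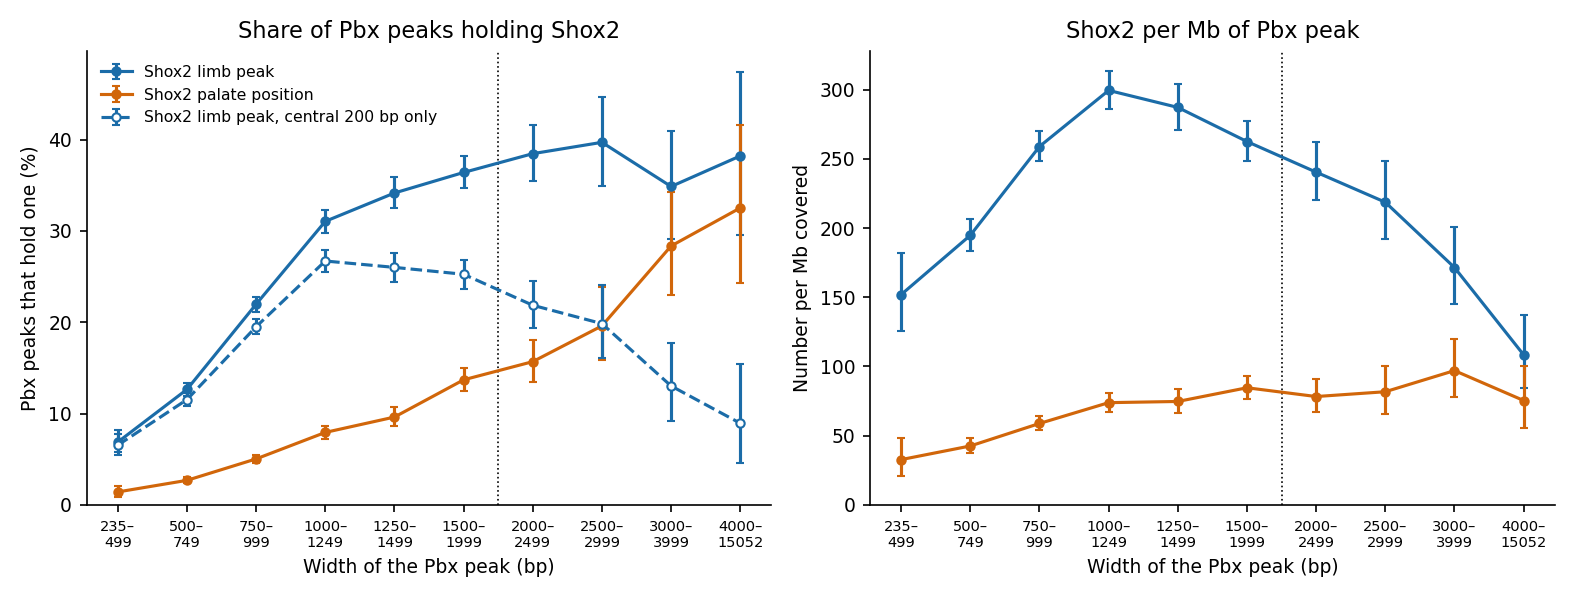
Left, the percentage of Pbx peaks in each width class that hold a Shox2 limb peak (blue) or a palate position (orange); open blue points count limb peaks in the central 200 bp only. Right, Shox2 limb peak centres and palate positions per Mb covered. Bars are exact 95% intervals for counting error, and the dotted line marks the 2000 bp limit; the limb share lies between 34.9% and 39.7% beyond it, while limb density falls to 108 per Mb.

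A single domain could hold several Shox2 sites. Of the 1775, 1097 held no Shox2 limb peak, 437 held 1, 177 held 2, 54 held 3, 9 held 4 and 1 held 5. At least 2 were thus held by 241 domains (13.6%), where the share over all Pbx peaks was 2.84%, and by 719 narrower peaks (2.24%). Domains that held any held 1.47 on average, and narrower peaks 1.11. Of the 11 Pbx peaks with 4 or more, 10 were domains.

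Several palate positions in 1 peak were rare. In domains 304 held 1 position, 42 held 2 and 2 held 3. The 44 domains with 2 or more were 2.48% of domains, where 0.310% of all Pbx peaks and 0.190% of narrower peaks (61) held as many. Width alone gives more room for several sites, and these counts were not set against a chance level.

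Within domains the Shox2 limb peaks stood further apart. Over 308 pairs of neighbouring limb centres in the same domain the median spacing was 724 bp (quartiles 509 and 1016 bp, range 233 to 2653 bp). In narrower peaks 660 pairs had a median of 476 bp, in a space that cannot exceed 1999 bp. Spacing within a peak is bounded by its width, which chose the domains, so the wider spacing is no separate finding.

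Limb and palate Shox2 both lay in the same domain in 175 cases (9.86%), where the share over all Pbx peaks was 2.96%. A further 503 domains (28.3%) held limb Shox2 alone and 173 (9.75%) palate Shox2 alone, where 3.67% of all Pbx peaks held palate Shox2 alone. The remaining 924 (52.1%) held neither. In narrower peaks the same 4 shares were 2.58%, 20.02%, 3.34% and 74.1%. Among domains with a palate position 50.3% also held a limb peak, and among those without 35.2% did. In narrower peaks these shares were 43.6% and 21.3%.

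**Figure D3:**
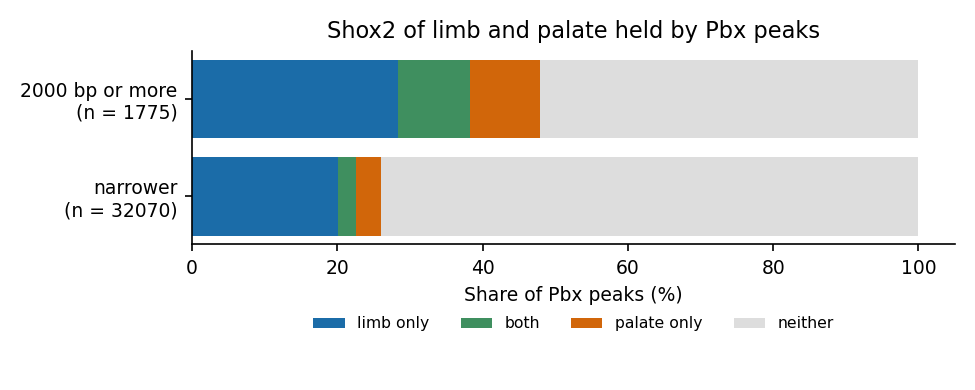
Share of Pbx domains of 2000 bp or more and of narrower Pbx peaks that hold Shox2 limb peaks only, palate positions only, both or neither. Neither was the largest part of both bars, 52.1% of domains and 74.1% of narrower peaks, and palate positions without a limb peak made up 9.75% and 3.34%.

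The domains that held palate Shox2 had the larger median widths. A wider domain meets more positions by its extent alone. Palate density ran from 75.4 to 97.0 per Mb over the steps of domain width, with overlapping intervals. Those with palate Shox2 alone had a median width of 2607 bp, and 34.7% of them reached 3000 bp. Those with limb Shox2 alone had a median of 2383 bp, and 16.7% reached 3000 bp. Domains with neither had a median of 2397 bp. By place in the file the order was different: limb-only domains stood highest, at a median line of 3116, followed by domains with both at 4006, with palate alone at 5150 and with neither at 6143.

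The Shox2 limb peaks inside domains were close in width and place to those inside narrower Pbx peaks. Shox2 limb peaks centred in domains had a median width of 336 bp, and 22.3% of them stood in the first decile of the Shox2 limb file. In narrower peaks these values were 326 bp and 21.4%. Outside all Pbx peaks on main chromosomes they were 245 bp and 6.00%. A palate position lay in 123 of the 984 limb peaks in domains, in 650 of 7791 (8.34%) in narrower peaks and in 1356 of 25140 (5.39%) outside.

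Of the 394 palate positions in domains, 127 (32.2%, 27.6 to 37.1%) fell inside a Shox2 limb peak, and in narrower peaks 655 of 1960 (33.4%, 31.3 to 35.6%) did. Outside Pbx peaks 1368 of 12737 (10.7%) did. The first decile of the palate file supplied 16.0% of the palate positions in domains and 16.0% of those in narrower peaks, against 8.90% of those outside.

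Shox2 sites were spread more evenly across domains than across narrower peaks. With each domain divided into 5 equal parts, 28.3% of limb centres lay in the middle part and 19.5% in the outer 2. In narrower peaks 42.3% lay in the middle part and 11.4% in the outer 2. Palate positions followed the same course, with 33.8% in the middle part of domains against 41.1% in narrower peaks. The median distance from the middle was 444 bp for limb centres and 452 bp for palate positions in domains. Domains and narrower peaks alike held more sites in the middle part than in any other. Each part is longer in a domain than in a narrower peak, and domains more often held several limb peaks. How far these bear on the more even spread was not tested.

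Shox2 density dropped at the edge of the domain. Limb Shox2 lay at 205 per Mb inside domains and at 17.7 per Mb in the first 1 kb outside, counted where no other Pbx peak lay, and at 13.7 per Mb at 20 to 50 kb. Palate Shox2 lay at 82.2 per Mb inside, 9.76 per Mb in the first 1 kb outside and 10.9 per Mb at 20 to 50 kb. Inside domains the density was therefore 14.9 times that at 20 to 50 kb for limb and 7.55 times for palate. For narrower peaks these ratios were 20.9 and 8.60.

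The surroundings of domains held more palate Shox2 than those of narrower peaks. At 20 to 50 kb palate density was 10.9 per Mb around domains and 7.51 around narrower peaks, and at 10 to 20 kb it was 13.4 and 8.32. For limb Shox2 the surroundings were closer, with 13.7 and 12.3 per Mb at 20 to 50 kb. The flanks of nearby Pbx peaks of both kinds overlap, so the 2 series of values share ground.

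**Figure D4:**
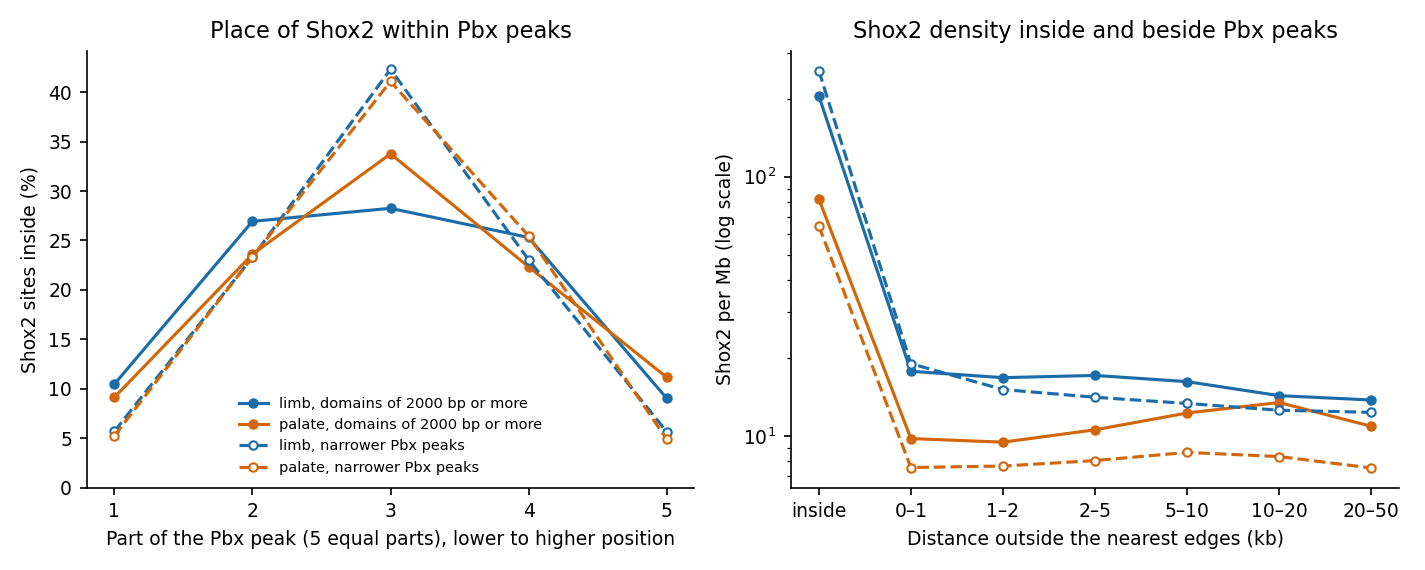
Left, the percentage of Shox2 limb centres (blue) and palate positions (orange) in each of 5 equal parts of the Pbx peak that holds them, for domains of 2000 bp or more (filled, solid) and narrower peaks (open, dashed). Right, Shox2 per Mb inside Pbx peaks and in steps of distance outside their edges, leaving out ground under other Pbx peaks, on a log scale. Limb density around domains drops from 205 per Mb inside to 17.7 per Mb in the first 1 kb outside.

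Domains lay close to other Pbx peaks and to each other. The nearest Pbx peak of any width was a median of 7454 bp away, edge to edge, against 12687 bp for narrower peaks. Another domain lay within 100 kb of 819 domains (46.1%), while 7679 narrower peaks (23.9%) had a domain within that distance. Within 10 kb the shares were 15.1% and 4.33%, and within 1 kb 47 domains (2.65%) and 0.661% of narrower peaks had a domain.

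Of the 2404 windows of 1 Mb with a Pbx peak, 827 held a domain. The 223 windows with 3 or more held 1001 domains (56.4%). These windows were also dense in Pbx peaks of every width, with a median of 32 against 7 in windows with no domain, and how far the clustering of domains goes beyond that of the whole list was not tested. The share of Pbx peaks that were domains was 5.82% in windows with 1 domain and 16.2% in the 76 windows with 5 or more, which were picked by that count. In those 76 windows Pbx peaks had a median of 40 and palate positions one of 13. In windows with no domain these medians were 7 and 3. Limb peaks had a median of 17 and 11.

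**Figure D5:**
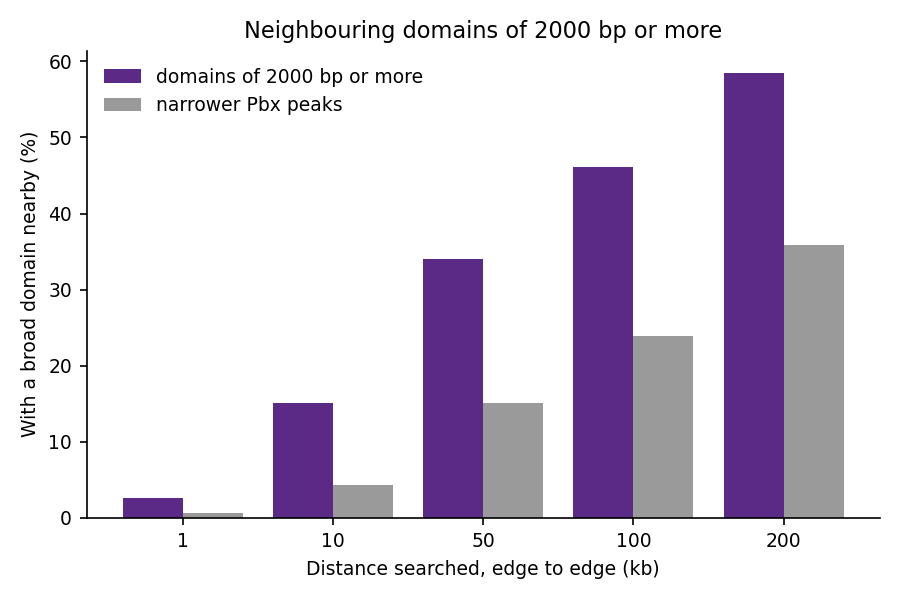
Percentage of domains of 2000 bp or more (purple) and of narrower Pbx peaks (grey) with a domain within each distance, edge to edge. At 100 kb the bars stand at 46.1% and 23.9%.

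At a finer scale 268 domains (15.1%) stood in 124 runs in which neighbours were at most 10 kb apart, and the other 1507 stood alone. Runs of 4 or more were 4 in number. The longest, 5 domains of 2003 to 3549 bp at chr11:96188855-96215001 (mm9, as all positions here), held no Shox2 site of either tissue. Its members stood on lines 947 to 31185 of the file, and the last pair was only 42 bp apart.

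A run of 4 at chr15:27706459-27719895 covered 11910 of its 13437 bp, with gaps of 122 to 1058 bp. Its widest member measured 4353 bp, and 3 of its members held 1 Shox2 limb peak each, with no palate position. The run at chr7:149722382-149746541 held neither limb nor palate Shox2. The run at chr7:143671065-143694807 held 3 Shox2 limb peaks and no palate position.

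The windows with the most domains differed in the Shox2 they held. Chromosome 7 from 143 to 144 Mb had 14 domains among 56 Pbx peaks, and of the 14 domains 8 held a limb peak and 6 a palate position. Chromosome 2 from 166 to 167 Mb also had 14, among 80 Pbx peaks. Only 1 of these held a limb peak and 3 held a palate position, in a window with 2 Shox2 limb peaks and 20 palate positions in all.

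Chromosome 8 from 27 to 28 Mb was the opposite case. Its 11 domains lay among 48 Pbx peaks, 10 of the 11 held limb Shox2, 13 peaks in total, and none held 1 of the window's 14 palate positions. All 11 stood on lines 129 to 4112 of the file, while in the other 4 windows the last member stood on lines 24613 to 32489. Chromosome 12 from 74 to 75 Mb had 13 domains, 8 with limb and 3 with palate Shox2. Chromosome 17 from 83 to 84 Mb had 11, with 4 and 3.

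The domains richest in limb Shox2 were not the widest. The 1 domain with 5 limb peaks, chr4:82536066-82538415, measured 2350 bp and stood on line 4997. Its limb peaks were centred 101, 506, 830, 1171 and 1683 bp from its start, and together they covered 1226 bp of it (52.2%). All 5 stood low in the Shox2 limb file, on lines 22418 to 33467. A palate position 1112 bp from the start fell inside the fourth of them, and this position stood on line 1276 of the palate file.

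The 9 domains with 4 limb peaks measured 2235 to 3211 bp. At chr10:97087085-97089954 the 4 limb peaks were centred 160, 936, 1647 and 2219 bp from the start, and 3 of them stood on lines 246, 924 and 911 of the Shox2 limb file, near its top. A limb peak of 1038 bp lay in this domain. At chr4:30638208-30640869 the centres were 386, 1009, 1609 and 2261 bp from the start, at nearly even steps. At chr3:99376281-99379471 one limb peak of 1222 bp, on line 555, held the middle of the domain and 3 others, lower in the file, lay around it.

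The others of the 9 were chr12:37518595-37521805, chr4:83476234-83479406, chr3:49846556-49849689, chr12:34904330-34907402, chr15:55907479-55909917 and chr14:58933187-58935421. Of the 10 domains with 4 or more limb peaks, 6 also held a palate position, 1 each. All 6 of these positions lay inside a Shox2 limb peak of the domain, against 32.2% of palate positions over all domains. The 10 were picked by their limb peaks, which covered 32.5 to 75.02% of each domain.

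Of the 2 domains with 3 palate positions, 1 held a limb peak. At chr17:8559680-8561963, a domain of 2284 bp on line 7389, 3 palate positions lay 344, 1244 and 2059 bp from the start, and there was no limb peak. At chr4:84102185-84104212 3 palate positions lay 265, 416 and 1512 bp from the start, beside a single limb peak of 739 bp that held none of them. Of these 3, the last lay 22 bp from the edge of the limb peak, and the others 336 and 487 bp from it.

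The next 3 were chosen among domains with 2 palate positions for having most limb peaks, a choice that favours coincidence. Over all domains 32.2% of palate positions fell in a limb peak. At chr9:41419433-41423473 and chr10:119682616-119684972 both palate positions fell in limb peaks, of which each domain held 3. At chr12:74150684-74155669, 4986 bp wide, 1 of 2 palate positions did, and it stood on line 480 of the palate file.

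The 10 widest domains were named by width alone. The widest, chr11:3023065-3038116, measured 15052 bp, stood on line 537 and held none, and its nearest Pbx peak was 170954 bp away. The next, chr6:52110353-52121252, measured 10900 bp and held 1 limb peak of 177 bp, 791 bp from its start. Domains chr2:115886104-115894956 (8853 bp) and chr11:98797077-98805927 (8851 bp) held no Shox2.

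Of the 10 widest, 5 held a limb peak, 3 a palate position and 3 neither, where 38.2%, 19.6% and 52.1% of all domains did. Among them 7 stood in the first decile of the file and 2 in the last. The 2 in the last decile, chr5:75544192-75553494 and chr9:61215167-61223287, each held a palate position from the last decile of the palate file, on lines 14425 and 14607. The domain chr6:51116996-51125387, on line 39, held 2 limb peaks, and chr14:15177488-15186648, on line 181, and chr8:19923756-19931551 held 1 each. The domain chr11:120089885-120098493 held 1 palate position, on line 883 of the palate file, and lay 59 bp from the nearest Pbx peak.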

How the data were processed

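Positions (chromosome, start, end) were the only values in the deposited lists, with no score, height or p-value. The submitters' processing notes name Bowtie, MACS2 and the build mm9. For versions, settings, the rule that ended the lists and any use of the controls in peak calling, nothing was given in the sources used here. An mm9 genome or annotation was not used, so genes and sequences were not assigned and no coordinate was converted. The deposited list of co-occupied regions was not used.

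Pbx peaks on chromosomes 1 to 19, X and Y were kept, 33845 in all, and those of 2000 bp or more taken as domains. Overlap meant 1 bp or more. Rates per Mb counted Shox2 limb peaks by their centre. Shares carry exact (Clopper-Pearson) 95% binomial intervals, and ratios of rates exact conditional ones. No test across samples was possible with 1 library per group. Regions named were the 10 widest domains, the 10 with most limb peaks, the 5 with most palate positions, the 5 windows of 1 Mb with most domains and all runs of 4 or more. The members, lists and rules were chosen with earlier results of these data known. The overlap code was tested on simulated data. Python 3.11.15, NumPy 2.4.6, pandas 2.3.3, SciPy 1.17.1 and matplotlib 3.10.9 were used. Alternatives were other widths, overlap rules, distances and parts of the lists.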

Additional observations from a re-analysis of the deposited data

How the results depend on the processing

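Without depth, absence from a list may mean only that a site lay under the cutoff. No paired analysis was possible because every group is a single library. Of 76 recomputed values, 33 stayed within the interval of the reported one (for the number of domains, within 1.5 times) and 43 moved further. A change of direction was looked for only in the ratios per Mb, and 0 were found among those recomputed. Single deciles and single width classes were not among them. By decile, domains had the higher palate rate in 7 of 10. In the first decile it was 78.2 per Mb in domains and 85.0 in narrower peaks. At 1500 to 1999 bp it was 84.6 per Mb, against 82.2 in domains. For the shares, the lead of domains over narrower peaks was 15.6 points for limb and 13.7 for palate. In the central 200 bp it was 0.24 points for limb and -0.0094 for palate.

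With limits of 1500, 2500 and 3000 bp there were 4717, 787 and 384 domains. Palate holders among them were 15.9%, 24.5% and 29.7%. Limb holders among narrower peaks were 21.2%, 23.1% and 23.3%, and palate holders 5.13%, 6.21% and 6.37%. The limb ratio per Mb was 0.92, 0.69 and 0.57. Domains with another within 100 kb were 65.6%, 35.5% and 24.2%, and those in the first decile of the file 31.9%, 45.0% and 49.0%. In the first 50% of the Pbx file, limb holders were 40.6% of domains and 30.3% of narrower peaks, palate holders 7.63% of narrower peaks, the limb ratio 0.71 and domains with another within 100 kb 42.7%. The first 50% of the Shox2 limb file gave 29.3% and 15.6% limb holders, and the first 50% of the palate file 11.4% and 3.53% palate holders. In the central 200 bp limb holders were 19.2% and 19.0% and palate holders 2.48% and 2.49%. In the central 800 bp 30.0% of domains held limb Shox2, and 9.52% and 5.50% held palate Shox2. A smaller window meets fewer sites by construction. Weighting narrower peaks to the file deciles of the domains gave ratios of 0.64 for limb and 1.09 for palate. Distances of 50 and 200 kb gave 34.0% and 58.5% with another domain. Joining Pbx peaks 500 bp or less apart, chosen after the data were seen, gave 50.8% with another domain within 100 kb and 37.7% in the first decile. Other causes were not tested.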
